A study of Homo sapiens with 4 samples.

Results

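The 8 genes CXCL9, CXCL10, CXCL11, CXCL16, CX3CL1, CCL2, CCL5 and CCL20 encode chemokines that attract T cells and monocytes. Their chromatin was profiled by ATAC-seq, which uses a transposase to insert sequencing tags into open DNA, in the established human nasopharyngeal carcinoma cell line HK1. The 4 groups were untreated wild-type cells (WT), wild-type cells given the cytokine interferon-γ (WT-IFN-γ), untreated cells edited with a guide RNA against the transcription factor gene FLI1 (sgFLI1), and such cells given interferon-γ (sgFLI1-IFN-γ). FLI1-KO stands for the edited cells. Each group held 1 peak list and no replicate, so groups were compared without a test. All intervals are 95%. Those on tags and ratios cover counting error within a library only. Wilson intervals on shares of peaks treat the peaks as independent draws. The methods list more than 1 guide against FLI1. Which of them made these cells, and whether the cells were 1 clone, is not given in the sources used here. A peak list holds no level of FLI1 transcript or protein, so the knockout labels were not checked here.

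A peak belonged to a chemokine gene when it overlapped the gene's GENCODE body on GRCh38 or the 10 kb upstream of it. This rule found 30 of the 250225 peaks in the 4 lists, 5 of them in WT against 9 in WT-IFN-γ, and 8 in each FLI1-KO library. Merged over the lists, they formed 10 regions at 6 of the genes. CXCL9 and CXCL10 had no peak in any list. Regions are named by gene and by the distance in bases from the gene's canonical transcription start site (TSS) to the summit, negative upstream; the summit is that of WT-IFN-γ where that library listed the region. The measured quantity is the pileup, the whole number of tags stacked over a peak's summit.

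Chemokines are small proteins that guide cells along a gradient by binding G protein-coupled receptors. CXCL9, CXCL10 and CXCL11 lie side by side on chromosome 4, share the receptor CXCR3 of activated T cells and are classical genes induced by interferon-γ. CXCL16 and CX3CL1 are made as membrane-anchored proteins, which act as adhesion molecules and can be released by ADAM proteases, and they bind CXCR6 and CX3CR1. CCL2 attracts monocytes through CCR2, CCL5 attracts T cells and monocytes through CCR1 and other receptors, and CCL20 attracts CCR6-bearing lymphocytes and dendritic cells. Open chromatin at a promoter or enhancer is where transcription factors can bind, and a peak is not a measure of transcription.

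Depth differed among the libraries. WT listed 59629 peaks at 8.04 tags per kb of genome (its tag density) and WT-IFN-γ 67470 at 8.84, while sgFLI1 listed 63203 at 6.93 and sgFLI1-IFN-γ 59923 at 6.86, with median pileups between 26 and 31 tags. Pileups were compared between libraries after division by tag density. At the background of each library, a peak needed 8 tags in the WT libraries and 7 tags in the FLI1-KO libraries to be listed, so a missing peak means a signal under such a limit and not closed chromatin. Peaks within 1 kb of a TSS of the epithelial genes KRT8 and EPCAM were in all 4 lists, and CDH1 had one in every list but WT. The squamous markers KRT5, KRT14 and TP63 had none. Of the markers of other cells, CD3E, CD3D, LYZ and the leukocyte marker PTPRC had none, whereas CD8A, CD14, CSF1R, COL1A1 and COL1A2 had one in all 4 lists and the endothelial genes PECAM1 and CDH5 in some. In bulk cells, fewer cells with an open region and less open chromatin per cell cannot be told apart.

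Sequences are shown for the CXCL11 and CXCL10 promoters, which differed in whether a peak was called there, and for the regions of CX3CL1 and CCL5 that were gained with IFN-γ upstream of the genes. Capitals mark matches, on either strand, to GAAANNGAA (the core bound by interferon regulatory factors, IRF), TGACTCA (AP-1) or the NF-κB consensus. The ETS motif CCGGAAGT, of the family to which FLI1 belongs, was also searched. Each sequence is printed 5′ to 3′ on the strand of its gene. The promoter sequences are the 250 bases before the RefSeq start on GRCh38.p14 (CXCL11 at chr4:76036071-76036320 and CXCL10 at chr4:76023498-76023747, both minus strand). The others are the 201 bases centred on the summit on GRCh38: CX3CL1 -4934 at chr16:57367456-57367656 (plus strand, between genes) and CCL5 -9830 at chr17:35890090-35890290 (minus strand, between genes).
CXCL11 promoter: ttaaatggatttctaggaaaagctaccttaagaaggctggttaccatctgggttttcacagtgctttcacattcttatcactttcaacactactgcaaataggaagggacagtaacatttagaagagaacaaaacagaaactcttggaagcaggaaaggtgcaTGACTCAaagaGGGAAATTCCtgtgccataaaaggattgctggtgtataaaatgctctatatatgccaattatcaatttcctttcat
CXCL10 promoter: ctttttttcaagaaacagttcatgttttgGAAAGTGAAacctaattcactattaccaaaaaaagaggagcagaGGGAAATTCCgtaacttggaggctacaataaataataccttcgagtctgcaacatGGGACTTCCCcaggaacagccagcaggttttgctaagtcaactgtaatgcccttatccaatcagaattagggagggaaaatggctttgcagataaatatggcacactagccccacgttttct
CX3CL1 -4934: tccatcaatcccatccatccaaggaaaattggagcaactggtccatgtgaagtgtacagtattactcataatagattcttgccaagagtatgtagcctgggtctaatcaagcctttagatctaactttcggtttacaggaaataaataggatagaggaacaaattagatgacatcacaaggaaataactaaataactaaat
CCL5 -9830: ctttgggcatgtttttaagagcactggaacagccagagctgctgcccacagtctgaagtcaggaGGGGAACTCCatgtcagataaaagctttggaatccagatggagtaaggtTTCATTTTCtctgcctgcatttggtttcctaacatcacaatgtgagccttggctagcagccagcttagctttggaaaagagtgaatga

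Across the 8 genes, peaks were gained with IFN-γ at CXCL11, CX3CL1 and CCL5 in WT cells and at CCL5 in FLI1-KO cells. A gained peak is one in the treated list that shares no base with a peak of the untreated list of the same genotype. Of the 9 WT-IFN-γ peaks at these genes, 4 were gained (44.4%, Wilson interval 18.9 to 73.3%), against 25.2% of all WT-IFN-γ peaks. Of the 5 WT peaks, 0 were lost, against 15.9% of all WT peaks. In FLI1-KO cells, 1 of the 8 sgFLI1-IFN-γ peaks was gained (12.5%, 2.24 to 47.1%), against 18% of all, and 1 of the 8 sgFLI1 peaks was lost, against 22.2% of all. All of these backgrounds lay inside the Wilson intervals of the chemokine shares. Peaks of the same gene are not independent, and 2 of the 4 peaks gained in WT were at CX3CL1, so this is no test. By gene, 3 of the 8 had a region gained in WT, against 32% of 19970 protein-coding genes, and 1 had one gained in FLI1-KO cells, against 22.9%. Genes with no peak in any list numbered 2 of 8, against 12.4% of protein-coding genes. The windows of the 8 genes were shorter (median 17065 bp) than those of all protein-coding genes (median 37476.5 bp), and a longer window can hold more peaks.

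Between genotypes, 3 of the 8 sgFLI1 peaks had no WT counterpart, all at CX3CL1, against a background of 25.3%. Over the WT listing limit, the sgFLI1 signal was 2.37 times at CX3CL1 +7266, with a low end of 1.76. It was 1.29 times at CX3CL1 -4934 (low end 0.618) and 1.02 times at CX3CL1 -6926 (low end 0.408). The absence from WT at the latter regions is thus within counting error. None of the 5 WT peaks was missing from sgFLI1 (background 21.4%). After IFN-γ, 1 of the 9 WT-IFN-γ peaks had no sgFLI1-IFN-γ counterpart, that at the CXCL11 promoter (background 29%). None of the 8 sgFLI1-IFN-γ peaks was missing from WT-IFN-γ (background 19.8%). The number of WT-IFN-γ regions without a sgFLI1-IFN-γ counterpart rose from 1 to 3 with −log10 q of at least 5 or 10 required in both lists and to 4 with 10 kb on both sides of the genes.

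Where both libraries listed a region, the ratio of their density-scaled pileups was taken, with an exact conditional binomial interval. With IFN-γ in WT cells, 0 of 5 regions were at least 1.5-fold higher (6.12% of all peaks overlapping one to one) and 0 at least 1.5-fold lower (7.22%). In FLI1-KO cells, 0 of 7 were higher (2.43%) and 1 was lower (6.87%). Without treatment, 1 of 5 regions was at least 1.5-fold higher in FLI1-KO than in WT cells (12.8%) and 1 lower (8.39%). The lower count depended on the scaling. It was 3 of 5, with CX3CL1 +5528 and CCL20 -17144 beside CXCL16 +193, against 11.1% of all peaks, when pileups were divided by the median of shared peaks. It was 2 of 5, without CCL20 -17144, against 9.31%, when the local background was subtracted. With IFN-γ, 1 of 8 was higher in FLI1-KO cells (10.5%) and 4 were lower (10.7%). The 4 lower regions were at CXCL16 and CX3CL1, and they come from 2 loci, so they are not 4 separate observations. The plot of pileups by library and the plot of ratios show all regions.

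**Figure D1:**
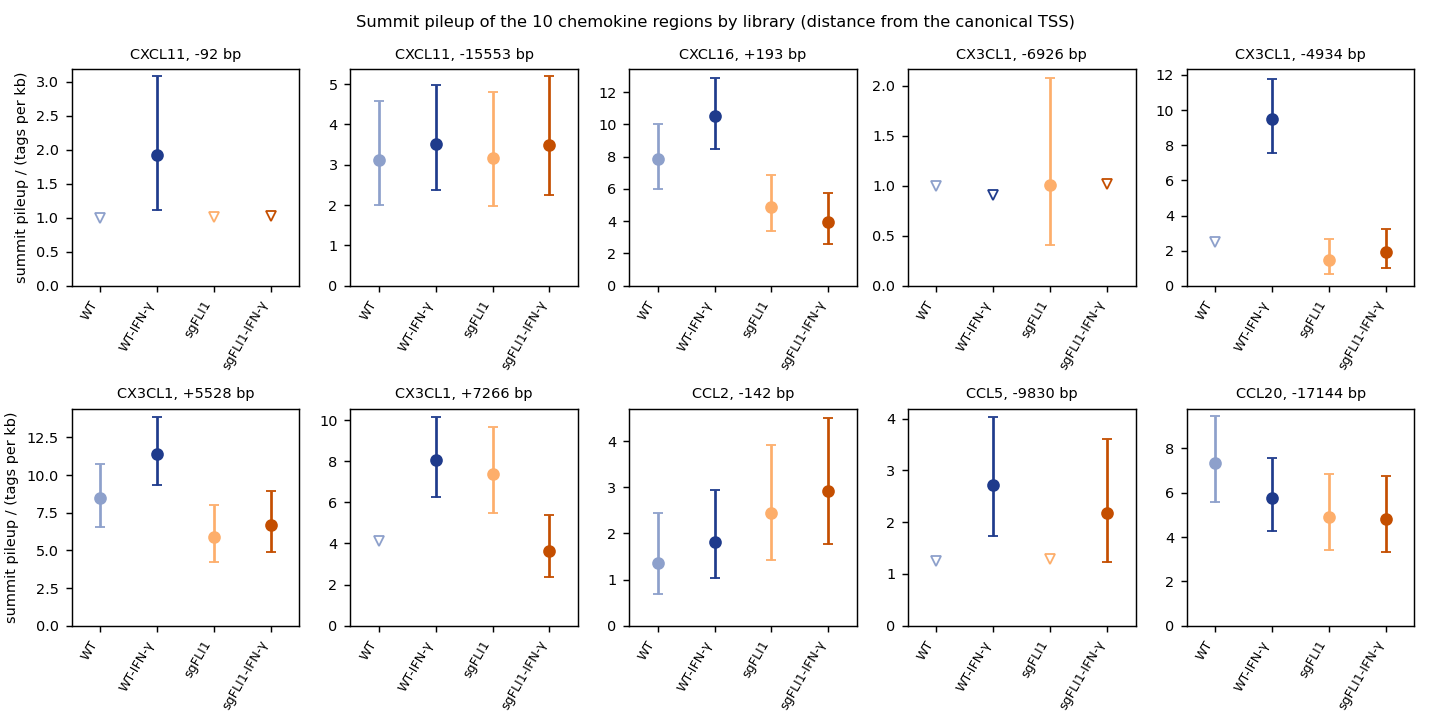
Summit pileup divided by the library's tag density (y axis, tags over tags per kb) for the 10 regions in the 4 libraries (x axis). Filled points are listed peaks with exact Poisson 95% intervals, and open triangles mark, where a library had no peak, the smallest signal that would have been listed over the local background of WT-IFN-γ (of sgFLI1 at CX3CL1 -6926) scaled to depth. WT-IFN-γ has the highest point at CXCL16 +193, CX3CL1 -4934 and CX3CL1 +5528, and the highest point at CCL2 -142 is in sgFLI1-IFN-γ.

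**Figure D2:**
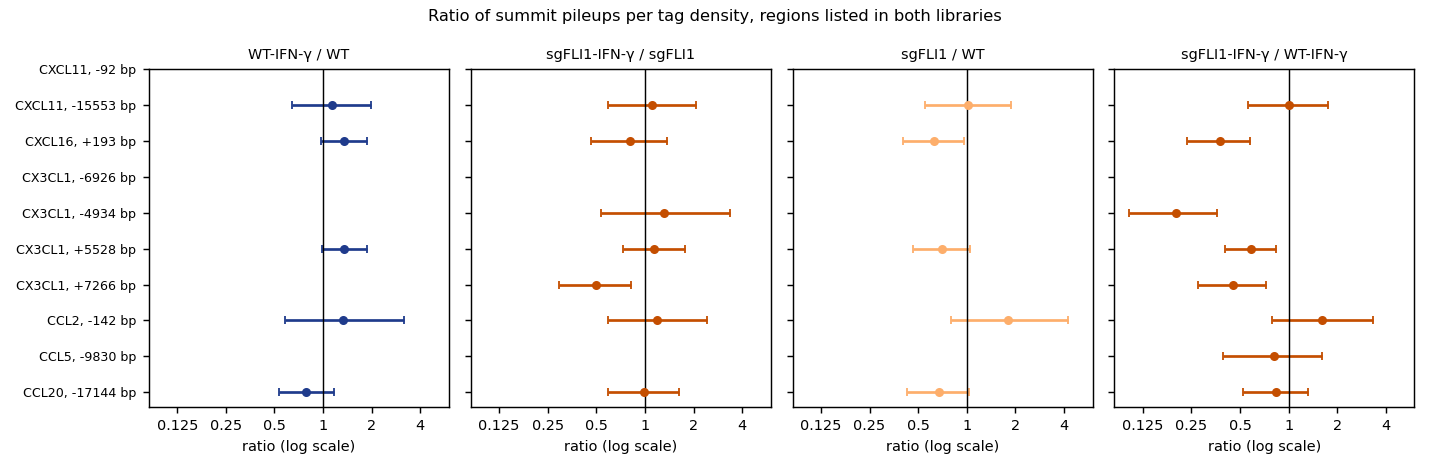
Ratio of density-scaled pileups (x axis, log scale) for each region listed in both libraries of a pair, with exact conditional binomial 95% intervals. The vertical line is a ratio of 1. Intervals lie wholly below 1 for CXCL16 +193 and the 3 CX3CL1 regions in sgFLI1-IFN-γ over WT-IFN-γ, for CXCL16 +193 in sgFLI1 over WT, and for CX3CL1 +7266 in sgFLI1-IFN-γ over sgFLI1.

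Among the CXCR3 ligands, a promoter peak was listed at CXCL11 in WT-IFN-γ and at none of the 3 genes in the other libraries. The peak CXCL11 -92 (chr4:76035789-76036271) covered the CXCL11 TSS and had 17 tags (exact Poisson interval 9.90 to 27.2), with a fold of 5.62 over local background as MACS writes it. By −log10 q, the significance the authors' peak caller gave, it stood at percentile 33.2 of its list. The other 3 libraries listed no peak there. The same signal would have been 15.5 tags at the depth of WT, where 8 would have been listed. It would have been 13.3 tags at that of sgFLI1 and 13.2 at that of sgFLI1-IFN-γ, where 7 would have been. The signal in WT-IFN-γ was thus 1.93 times the limit of WT, 1.90 times that of sgFLI1 and 1.89 times that of sgFLI1-IFN-γ, and the low end of its interval, 1.12 on the density-scaled pileup, lies near those limits of 0.995, 1.01 and 1.02. The printed CXCL11 promoter holds an AP-1 match that begins at -87 and an NF-κB match at -76, 8 and 21 bases from the summit, and no GAAANNGAA.

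The next region upstream, CXCL11 -15553 (chr4:76051180-76052168), was in all 4 lists and showed little difference. It lies inside the gene record of the neighbouring gene ART3 and reached the CXCL11 window with its edge while its summit fell just outside. WT had 25 tags and WT-IFN-γ 31, and sgFLI1 had 22 and sgFLI1-IFN-γ 24. The IFN-γ ratio was 1.13 (0.645 to 1.99) in WT and 1.10 (0.592 to 2.06) in FLI1-KO cells. FLI1-KO over WT was 1.02 (0.549 to 1.89) untreated and 0.997 (0.560 to 1.76) treated.

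CXCL9 and CXCL10 had no peak in the gene body or the 10 kb before it in any library. For CXCL10, the nearest summit in WT-IFN-γ was that of the CXCL11 promoter, at -12665 bases. In WT it lay at -28193, in sgFLI1-IFN-γ at -28143 and in sgFLI1 at 27582 bases downstream. For CXCL9, the nearest summit was 11594 bases downstream in WT-IFN-γ (20 tags) and sgFLI1 (13 tags), and 16535 and 16525 bases downstream in WT and sgFLI1-IFN-γ, at the promoter of SDAD1. Signal of fewer than 8 tags (WT libraries) or 7 tags (FLI1-KO libraries) at these promoters was not detectable. The printed CXCL10 promoter holds an IRF match at -221 and NF-κB matches at -177 and at -122, the last one on both strands, and the CXCL9 promoter has an IRF match at -171. The promoters of the peakless genes thus hold IRF letters that the CXCL11 promoter lacks in this window.

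**Figure D3:**
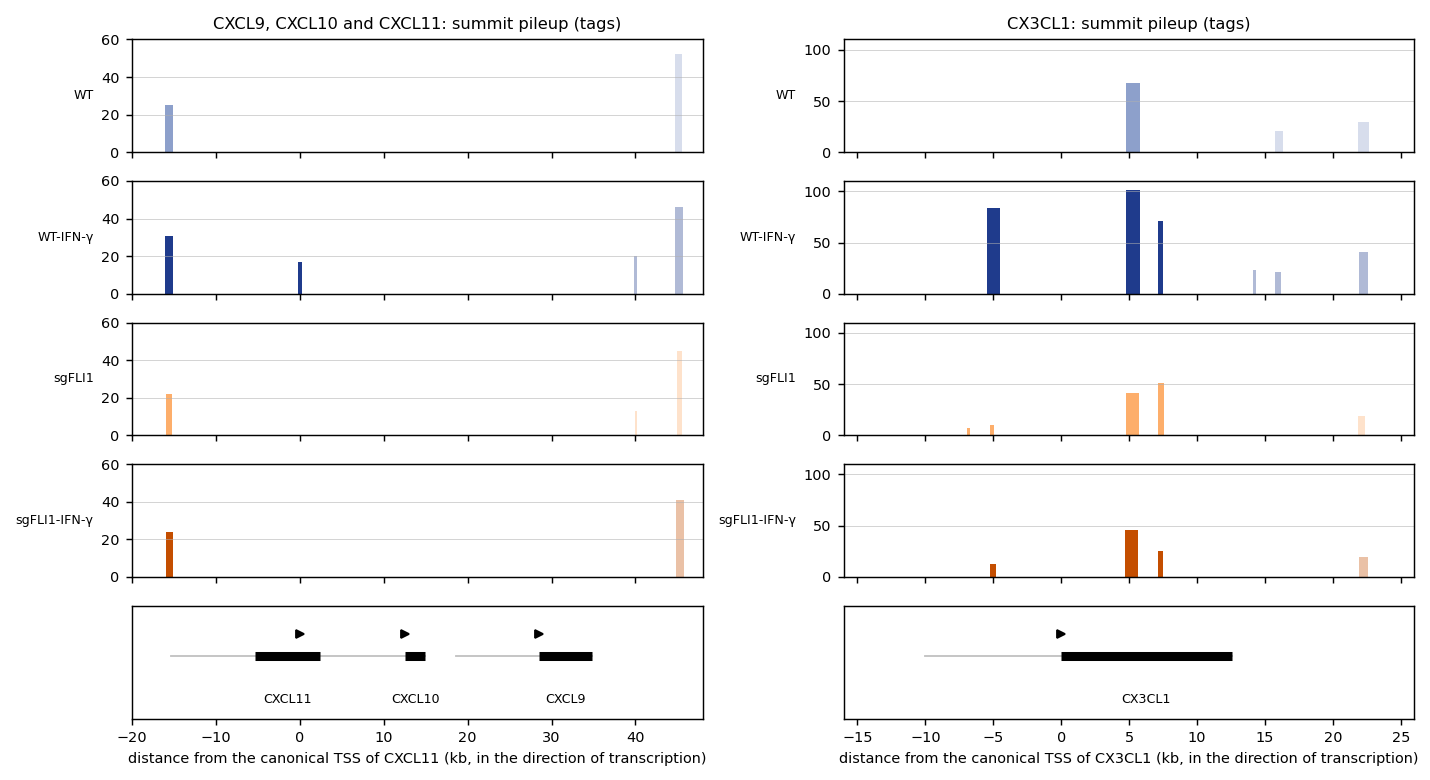
Peaks around CXCL9, CXCL10 and CXCL11 (left) and CX3CL1 (right) in the 4 libraries, drawn to scale at their distance in kb from the CXCL11 or CX3CL1 TSS in the direction of transcription, with the summit pileup in tags as the height. Dark bars are peaks that meet the rule, pale bars are neighbours within 30 kb, black boxes are gene bodies, grey lines are the upstream windows and arrowheads are the TSSs. The 17-tag peak at the CXCL11 TSS is in WT-IFN-γ alone, no dark bar lies over CXCL9 or CXCL10, and the bar 4.9 kb upstream of CX3CL1 is tall in WT-IFN-γ and short or missing in the others.

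CXCL16, whose product is both a scavenger receptor and the ligand of CXCR6, had 1 region, which lay over its promoter in all 4 lists. CXCL16 +193 (chr17:4739267-4740226) covers the TSSs of CXCL16 and of the neighbouring gene ZMYND15, so its signal cannot be assigned to 1 of them. Its summit fell in the untranslated first exon of CXCL16. WT had 63 tags over the summit and WT-IFN-γ had 93, whereas sgFLI1 had 34 and sgFLI1-IFN-γ had 27. The summits stood at +242 and +193 in the WT libraries and at +321 and +352 in the FLI1-KO ones. Both FLI1-KO libraries were thus below both WT libraries, also on the density scale, at 4.90 and 3.94 against 7.83 and 10.5. FLI1-KO over WT was 0.626 (0.400 to 0.965) untreated and 0.374 (0.234 to 0.579) treated. Among one-to-one peaks of like depth, with summed pileups within 0.8 to 1.25 times that of this region, 5.99% had a lower ratio untreated and 1.17% treated.

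The response to IFN-γ at CXCL16 +193 was 1.34 (0.965 to 1.88) in WT cells and 0.802 (0.466 to 1.37) in FLI1-KO cells. Both intervals include 1, and the FLI1-KO response over the WT response was 0.597 (0.328 to 1.09), whose interval (normal approximation on the log scale) also includes 1. The surroundings were lower in FLI1-KO cells as well: shared peaks within 5 Mb, scaled to the median of all peaks, had a median FLI1-KO over WT ratio of 0.841 untreated (259 peaks) and 0.870 treated (264 peaks). The promoter of MED11, a neighbour in the same 30 kb chosen after its values were seen, had FLI1-KO over WT ratios of 0.945 (0.768 to 1.16) untreated and 0.918 (0.736 to 1.14) treated. Another neighbour within 30 kb, about 9.3 kb into ARRB2 and also chosen after its values were seen, ran the other way, with density-scaled pileups of 3.61 (WT) and 3.17 (WT-IFN-γ) against 9.95 (sgFLI1) and 7.43 (sgFLI1-IFN-γ). A copy-number or other regional difference between the cells was not tested. The summit window holds 1 IRF match, which begins at +276, and none of the other motifs.

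CX3CL1, the membrane-anchored ligand of CX3CR1 on monocytes and cytotoxic lymphocytes, had the most regions, 4 of the 10. No library had a peak over its canonical TSS. WT listed 1 CX3CL1 peak and WT-IFN-γ 3, and sgFLI1 listed 4 and sgFLI1-IFN-γ 3, a change with IFN-γ of 2 in WT and of -1 in FLI1-KO cells. By pileup, the 3 regions that WT-IFN-γ listed were higher there than in sgFLI1-IFN-γ.

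The ratio farthest from 1 was 4.9 kb upstream, at CX3CL1 -4934 (chr16:57367001-57367995, between genes). WT listed no peak there, while WT-IFN-γ had 84 tags (67.0 to 104), sgFLI1 had 10 (4.80 to 18.4) and sgFLI1-IFN-γ had 13 (6.92 to 22.2). In WT-IFN-γ the peak was 995 bp wide and stood at percentile 86.3 of its list by −log10 q. In sgFLI1 and sgFLI1-IFN-γ it was 271 and 416 bp wide, at percentiles 9.04 and 15.5. At the local background of WT-IFN-γ scaled to the depth of WT, 20 tags would have been listed, and the WT-IFN-γ signal was 3.82 times that limit. A weaker WT peak of 8 tags or more would have been listed over the library background, which is lower than the local one. sgFLI1-IFN-γ over WT-IFN-γ was 0.199 (0.102 to 0.360), and 0.162% of one-to-one peaks of like depth had a lower ratio. In FLI1-KO cells the IFN-γ ratio was 1.31 (0.532 to 3.35). The printed window around this summit holds none of the 4 motifs.

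In intron 1, CX3CL1 +5528 (chr16:57377210-57378317) was in all 4 lists. WT had 68 tags and WT-IFN-γ 101, and sgFLI1 had 41 and sgFLI1-IFN-γ 46. The summits stood at +5582 and +5528 in the WT libraries and at +5271 and +5259 in the FLI1-KO ones. Ratios between genotypes thus compare different positions within the region. The IFN-γ ratio was 1.35 (0.984 to 1.87) in WT and 1.13 (0.728 to 1.77) in FLI1-KO cells, both with intervals that include 1. FLI1-KO over WT was 0.700 (0.463 to 1.05) untreated and 0.587 (0.405 to 0.839) treated. The response in FLI1-KO over that in WT cells was 0.839 (0.498 to 1.41).

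In intron 2, CX3CL1 +7266 (chr16:57379602-57380085) followed another order. WT listed no peak, WT-IFN-γ had 71 tags, sgFLI1 had 51 and sgFLI1-IFN-γ had 25. The local background there was high, at 18.1 tags in WT-IFN-γ (2.20 for the library as a whole), 9.92 in sgFLI1 and 9.18 in sgFLI1-IFN-γ. WT listed no peak, so its own local background there is not known. Scaled to the depth of WT, those backgrounds gave listing limits of 33, 25 and 24 tags. Over the limit from its own background, the WT-IFN-γ signal was 1.96 times, with a low end of 1.53. The untreated sgFLI1 signal was 2.37 times (low end 1.76) and that of sgFLI1-IFN-γ 1.22 times (low end 0.790). In FLI1-KO cells the IFN-γ ratio was 0.495 (0.294 to 0.814), and 0.214% of one-to-one peaks of like depth had a lower one. sgFLI1-IFN-γ over WT-IFN-γ was 0.454 (0.275 to 0.725). The remaining region, CX3CL1 -6926 (chr16:57365530-57365802), lay over an exon of the neighbouring chemokine gene CCL22 and was in sgFLI1 alone, with 7 tags, the lowest pileup that list holds. It stood at percentile 0.544 and rests on the listing limit.

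Shared peaks within 5 Mb of CX3CL1 were also lower in FLI1-KO cells. Their median FLI1-KO over WT ratio, scaled to the median of all peaks, was 0.804 untreated (106 peaks) and 0.809 treated (115 peaks), with a lower quartile of -0.52 on the log2 scale after treatment. The treated log2 ratios of -2.33 at CX3CL1 -4934, -1.14 at CX3CL1 +7266 and -0.77 at CX3CL1 +5528 lay below that quartile. For the 6 genes other than CX3CL1 and CXCL16, the same median lay between 1.03 and 1.15. The part of this regional difference in the CX3CL1 values was not tested.

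**Figure D4:**
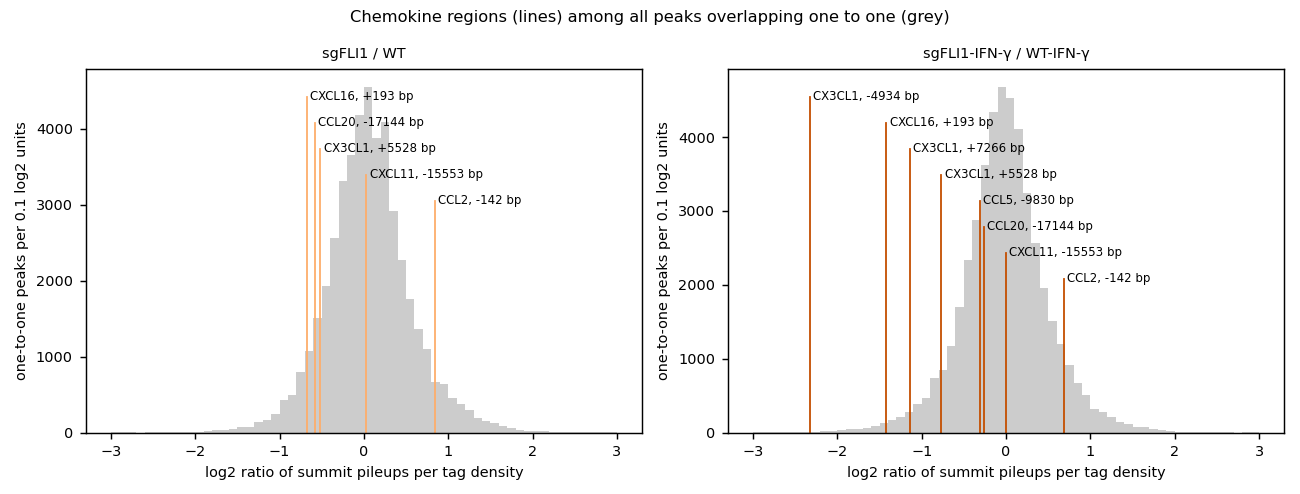
Number of one-to-one peaks (y axis) by log2 ratio of density-scaled pileups (x axis, bins of 0.1) for sgFLI1 over WT (left) and sgFLI1-IFN-γ over WT-IFN-γ (right). Lines mark the chemokine regions at their own ratios, and their heights only separate the names. In the treated pair, CX3CL1 -4934 lies at -2.33 and CXCL16 +193 at -1.42, both in the low tail, and CCL2 -142 lies at 0.69 on the other side.

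CCL2 had 1 region, at its promoter, in all 4 lists. The pileups at CCL2 -142 (chr17:34254543-34255581) were 11 tags for WT and 16 for WT-IFN-γ, then 17 for sgFLI1 and 20 for sgFLI1-IFN-γ. The peaks of WT-IFN-γ and both FLI1-KO libraries covered the TSS, and the WT peak ended before it. The FLI1-KO values were higher than those of WT, at 1.79 times (0.792 to 4.24) untreated and 1.61 times (0.793 to 3.32) treated. CXCL16 had the opposite order in both pairs, and the CX3CL1 regions had it in the treated pair. IFN-γ ratios were 1.32 (0.577 to 3.15) in WT and 1.19 (0.591 to 2.42) in FLI1-KO cells. All 4 intervals include 1, so no difference was detectable at this depth.

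CCL5 was the gene whose region was gained in both genotypes. CCL5 -9830 (chr17:35889910-35890569) lay near the far end of its upstream window and was listed in neither untreated library. WT-IFN-γ had 24 tags (15.4 to 35.7) and sgFLI1-IFN-γ had 15 (8.40 to 24.7), a ratio of 0.805 (0.393 to 1.60). Over the local background of the treated library of the same genotype, scaled to depth, the listing limit was 10 tags in WT and 8 in sgFLI1. The WT-IFN-γ signal was 2.18 times the WT limit, with a low end of 1.40 times. The sgFLI1-IFN-γ signal was 1.89 times the sgFLI1 limit, with a low end of 1.06 times. With −log10 q of at least 10 required, no gain was left in FLI1-KO cells. No peak covered the CCL5 TSS in any library. The printed window holds an IRF match 17 bases from the summit and an NF-κB match 31 bases on the other side.

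CCL20 had 1 region, CCL20 -17144 (chr2:227796095-227797050), inside the upstream window because the gene record begins before the canonical TSS. It had 59 tags in WT against 51 in WT-IFN-γ, and 34 in sgFLI1 against 33 in sgFLI1-IFN-γ. The sgFLI1 summit stood at -17491, and the others at -17223 (WT), -17222 (sgFLI1-IFN-γ) and -17144 (WT-IFN-γ). Ratios that involve sgFLI1 thus compare different positions within the region. The IFN-γ ratio was 0.787 (0.530 to 1.16) in WT and 0.981 (0.589 to 1.63) in FLI1-KO cells. FLI1-KO over WT was 0.669 (0.425 to 1.04) untreated and 0.834 (0.521 to 1.32) treated, and all 4 intervals include 1. The strongest peak near the gene lay just downstream of it, outside the rule, with 131 tags in WT against 130 in WT-IFN-γ, and 110 in sgFLI1 against 117 in sgFLI1-IFN-γ. Its FLI1-KO over WT ratios were 0.974 (0.749 to 1.27) untreated and 1.16 (0.895 to 1.5) treated. No peak covered the CCL20 TSS, whose promoter has an NF-κB match at -79.

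Motifs were described for 9 summit windows, at the WT-IFN-γ summit where there was one. An IRF match was in 2 of them, at CXCL16 and CCL5. NF-κB matches were in 2, at CXCL11 -92 and CCL5, an AP-1 match was in 1 and the ETS motif in 0. The matches depend on which summit is taken: at CX3CL1 +5528, AP-1 matched at the summits of the other 3 libraries, and NF-κB at those of both FLI1-KO libraries. At CCL5 -9830, NF-κB had no match at the sgFLI1-IFN-γ summit. At CCL20 -17144, IRF matched at the summits of WT and sgFLI1-IFN-γ. Over all WT-IFN-γ peaks, windows of the same length held the IRF motif in 9.09%, NF-κB in 6.53%, AP-1 in 19.1% and ETS in 1.28%. Of 35116 RefSeq promoters, 8.11% held the IRF motif, 11.3% NF-κB, 4.95% AP-1 and 4.14% ETS. RefSeq promoters were at hand for CXCL9, CXCL10, CXCL11 and CCL20. A match describes letters only and is not a bound site.

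The receptors, proteases and other chemokines of the same system were counted by the same rule. Of these 34 genes, 24 had a peak in some list, a smaller share than among all protein-coding genes, of which 12.4% had none. The windows of the other chemokines (median 14347.5 bp) and receptors (median 17077 bp) were shorter than those of all protein-coding genes (median 37476.5 bp). A region was gained with IFN-γ in WT cells at 8 of 34, against 32% of protein-coding genes, and in FLI1-KO cells at 5 of 34, against 22.9%. Neither count was above its background, so the genes below describe the list and do not set it apart. In WT, regions were gained at the receptor genes CX3CR1, CXCR3 and ACKR2, at all 3 proteases and at CCL24 and CCL21. The protease windows were long (median 92150 bp). The most significant gained region was in intron 1 of ADAM17, an enzyme that can shed CX3CL1 and CXCL16. It had 73 tags (57.2 to 91.8) in WT-IFN-γ and no peak in the other 3 lists. A region of CX3CR1, the receptor of CX3CL1, had 51 tags (38.0 to 67.1), and one 8.2 kb upstream of CXCR3 had 18 (10.7 to 28.4). Both were in WT-IFN-γ alone. DPP4, which trims CXCR3 ligands, had 3 gained regions of 9 to 20 tags, of which the one with 19 tags was also listed in both FLI1-KO libraries. A further CX3CR1 region of 16 tags was also in sgFLI1, and ACKR2 had 2 of 16 and 30 tags. ADAM10 had 1 gained region of 13 tags, and CCL24 and CCL21 had 1 of 10 tags each. In FLI1-KO cells, the 5 genes with a gained region included CXCL17 (30 tags), CXCL13 (16 tags), CCL17 (13 tags) and CCR1 (10 tags). The remaining gene, lowest by −log10 q, fell outside the limit of 12 named genes. The regions of CXCL17 and CXCL13 had also been listed in WT.

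The neutrophil-attracting CXCL genes on chromosome 4, 8 in number, held 5 peaks in WT-IFN-γ and 4 in each of the other libraries. Of these genes, 1 (CXCL6) had a region gained in WT and 0 in FLI1-KO cells, beside 3 and 1 among the T-cell and monocyte attracting genes and 32% and 22.9% of protein-coding genes. Their windows were shorter (median 12188 bp against 17065 bp), and the difference between the lists was not tested.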

How the data were processed

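ATAC-seq libraries of HK1 cells were analysed from 1 deposited peak list per group. Per the study's methods and the submitters' processing notes, the authors trimmed reads with Trimmomatic (version 0.3), aligned them to GRCh38 with Bowtie2 (version 2.3.4.1), removed duplicates with Picard and alignments of low mapping quality, and called peaks with MACS2 (version 2.1.2). Whether a list comes from 1 replicate or pooled ones, before or after the named reproducibility filter, and whether tags were shifted for the transposase, is not given in the sources used here.

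The authors' deposited values are a score, a fold (a ratio over local background), a −log10 p and a −log10 q (p-value and q-value) for each peak. The score was not used. Pileups were recovered from the deposited fold, (pileup + 1) / (background + 1), and the Poisson −log10 p: a whole pileup fitted both within 0.002 in −log10 p for 100% of peaks. Tag density is the lowest background of a list over its extension length (249 to 274 bp). It depends on MACS settings and is used between libraries only.

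An overlap of 1 bp or more made peaks of different lists shared. The calling fold was 1.5. Annotation was GENCODE release 44. Motifs were searched within 100 bp of summits, and those of 1 region are not reported here. The members and gene lists were chosen with earlier results of these data known. Named genes were all 8 members with every peak, up to 12 other chemokine-system genes with a gained region by −log10 q, and genes whose TSS lay in a member peak. Further neighbours (MED11, SDAD1, ART3, CCL22) served to place peaks. Alternatives were 8 settings for counts and 3 scalings for ratios. Recovery was tested on 20000 simulated peaks, of which 20000 were recovered, and 200 of 200 removed regions were counted. Scripts ran in Python 3.11.15 (pandas 2.3.3, numpy 2.4.6, matplotlib 3.10.9, scipy 1.17.1).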

Additional observations from a re-analysis of the deposited data

Results flagged for a closer look

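The values with and without IFN-γ went in opposite directions in the 2 genotypes at 3 points, and none of these differences was tested, since each group held 1 library. For CX3CL1, the change in listed peaks was 2 among WT libraries and -1 among FLI1-KO libraries. The peak behind the -1 is CX3CL1 -6926, over a CCL22 exon, with 7 tags in sgFLI1 at percentile 0.544 of its list. That signal comes to 6.93 tags at the sgFLI1-IFN-γ depth, where 7 are needed, so its absence there cannot tell whether there was a response. With lists of equal size, no region was lost in FLI1-KO cells. The IFN-γ ratio at CXCL16 +193 was 1.34 in WT and 0.802 in FLI1-KO cells, and both counting intervals include 1. Over all one-to-one peaks, the median IFN-γ ratio was 0.952 in WT and 0.909 in FLI1-KO libraries. Among those of like depth, 93.5% had a lower ratio than CXCL16 +193 in WT and 27.2% in FLI1-KO cells. At CX3CL1 +7266, the WT-IFN-γ signal was 1.96 times a listing limit for WT, which takes the local background of WT-IFN-γ scaled to depth, while the ratio was 0.495 in FLI1-KO cells.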

How the results depend on the processing

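Of the counts recomputed under 8 alternatives, 64 stayed within 1.5 times the reported count and 24 did not. All 75 ratios under 3 other scalings stayed within the counting intervals of the reported ratios. The scalings changed ratios by 0.786 to 1.10 times only, and the intervals are wider, so this check could hardly fail. A ratio crossed 1 in 2 cases when scaled to the median of shared peaks and in 1 with the local background subtracted. The number of sgFLI1 regions at least 1.5-fold lower than WT rose from 1 to 3 and to 2 under these scalings. With −log10 q of at least 5, 3 of the 9 WT-IFN-γ peaks were not in sgFLI1-IFN-γ, against 1 of 9. With at least 10, that number was 3 of 7, and the chemokine peaks numbered 5 in sgFLI1 and 4 in sgFLI1-IFN-γ. At that limit, 0 regions were gained in FLI1-KO cells and 1 was in sgFLI1 and not in WT. With lists of equal size, 0 regions were lost in FLI1-KO cells. With 3 kb upstream, the lists held 3, 5, 4 and 4 peaks (WT, WT-IFN-γ, sgFLI1, sgFLI1-IFN-γ), 2 regions were gained in WT, 0 gained and 0 lost in FLI1-KO cells, and 1 was in sgFLI1 and not in WT. With 10 kb on both sides, the lists held 10, 16, 13 and 13 peaks, 2 regions were lost in FLI1-KO cells, 5 were in sgFLI1 and not in WT, 1 the reverse, 4 were in WT-IFN-γ and not in sgFLI1-IFN-γ and 1 the reverse. Windows change which peaks are counted, and q limits remove weak ones. The shares over all peaks were not computed for the q limits or for lists of equal size, so those counts have no background. No paired analysis was possible because each group held 1 library. Peaks of fewer than 7 or 8 tags could not be listed at this depth, and without replicates no difference could be set against biological spread.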
